A study of Mus musculus with 12 samples.

Results

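The genes described here are counted as genes of the squamous cornified envelope. They are the small proline-rich genes Sprr1a, Sprr1b, Sprr2g, Sprr2h and Sprr3, and those for the precursor involucrin (Ivl) and cornifelin (Cnfn). Transglutaminase 1 (Tgm1) and transglutaminase 3 (Tgm3) are the crosslinking enzymes. Sprr2g is annotated as a pseudogene, and whether its RNA yields a protein was not tested. The 9 genes were taken by symbol from a table of raw counts for 23337 genes, and they were chosen by their biology and by earlier results on these same libraries, among them the higher Sprr2g count in quiescent cells. Which other values guided the choice is not recorded. The levels and all contrasts between proliferating and quiescent cells are therefore given as a description, and the outputs of the knockdown tests are printed with the same reserve. Of the 9 genes, 4 (Sprr2g, Sprr1a, Ivl and Tgm1) had enough counts to be tested, and the other 5 were close to silent.

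The 12 RNA sequencing libraries came from NU1, a wild-type mouse urothelial cell line that arose by serial passaging without a transforming agent. Each group had 3 libraries, numbered by experiment 5, 7 and 9, and the 4 groups crossed a growth state with a lentiviral hairpin. Proliferating cells grew in complete medium with epidermal growth factor. Quiescent cells were grown to confluence and then kept in complete medium with rosiglitazone at 1 µM, an agonist of the nuclear receptor PPAR gamma, and erlotinib at 0.5 µM, a kinase inhibitor that blocks signalling by that growth factor's receptor. They were labelled day 7. In both states, control cells carried the hairpin shNT and knockdown cells carried sh4 against Stag2, a cohesin subunit, so the knockdown rests on 1 hairpin. Confluence, both drugs and the time in culture differ together between the states and cannot be told apart.

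The labels were checked on Stag2, which lay between 113 and 145 CPM (counts scaled to a common library total) in proliferating control and between 24.6 and 33.3 CPM in proliferating knockdown libraries. In quiescent cells it lay between 107 and 128 CPM in control and between 9.43 and 15.3 CPM in knockdown libraries. Library totals ran from 14524429 to 21987539 counts, and 3 counts, the upper limit that a count of 0 allows, correspond to 0.136 to 0.207 CPM. All 19 urothelial markers examined had a row in the table, led by the simple keratin Krt8 at 3493 to 9042 CPM. Cdh1 lay between 652 and 2311 CPM, but Trp63, the regulator that defines basal urothelium, was at 0 in all 12 libraries. The uroplakins on that list were low, at most 3.94 CPM for Upk1a, 2.23 for Upk1b, 1.45 for Upk2, 0.0453 for Upk3a and 8.91 for Upk3b. Krt5 reached at most 6.60 CPM. Fibroblast markers summed to at most 2.27 CPM, endothelial markers to at most 0.762 CPM and smooth muscle markers to at most 0.835 CPM.

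The cornified envelope is a sheath of crosslinked protein that replaces the plasma membrane of squamous keratinocytes in the last stage of their differentiation. Involucrin is laid down early beneath the membrane, small proline-rich proteins act as flexible bridges between larger precursors, and transglutaminases join these proteins by bonds between glutamine and lysine side chains. Normal urothelium does not cornify, but squamous metaplasia of the bladder lining does switch on such genes. Most envelope genes sit side by side in the epidermal differentiation complex, which in the mouse is on chromosome 3.

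Since Sprr genes are near relatives, the sequences that tell the Sprr2 rows apart are shown first. The first 48 coding bases of Sprr2g are given with those of Sprr2f and Sprr2h, from GENCODE M21 on build mm10 (GRCm38), and capitals mark bases that differ from Sprr2g.
Sprr2g: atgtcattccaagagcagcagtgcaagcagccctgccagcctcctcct
Sprr2f: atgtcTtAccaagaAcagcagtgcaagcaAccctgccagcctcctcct
Sprr2h: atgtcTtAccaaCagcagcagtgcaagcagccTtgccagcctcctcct
Both relatives differ from Sprr2g at 4 of these 48 bases. Over the annotated coding sequence, Sprr2g was 87.1% identical to Sprr2f, 86.2% to Sprr2e and 61.2% to Sprr2h, with gaps counted as differences. The coding sequence of Sprr2h is longer (324 bases against 232), and over aligned bases alone Sprr2g matched Sprr2h at 200 of 229 and Sprr2f at 202 of 228. By the first measure Sprr1a was 78.6% identical to Sprr1b. Of the 602 stretches of 50 bases in the longest Sprr2g transcript, 0 occurred in a transcript of another gene, and the same count of 0 held for the other 4 Sprr genes. The longest run that Sprr2g shared exactly with another Sprr transcript was 40 bases, with Sprr2c-ps. For Sprr2h it was 44 bases, with Sprr2e, and for Sprr1a and Sprr1b it was 20 bases, with each other. The split of reads between Sprr rows nevertheless remains uncertain, since the read length and the handling of multiple matches are not given in the sources used here. Tgm1 shared 134 of its 2803 stretches of 50 bases (4.78%) with the annotation Gm49067, and Ivl shared 13 of 1873 (0.694%).

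Among the 9 genes, Sprr2g held most of the counts. Over all 12 libraries it received 32360 counts, 68.9% of the total of the 9 genes, against 16.6% for Sprr1a, 8.98% for Tgm1 and 5.42% for Ivl. The remaining 5 genes had 51 counts (Sprr2h), 20 (Sprr1b), 15 (Sprr3), 4 (Tgm3) and 2 (Cnfn). Per kilobase of the longest transcript, the mean level in quiescent controls was 436 CPM per kb ± 304 (SD, n = 3) for Sprr2g, 47.7 ± 56.2 (SD, n = 3) for Sprr1a, 9.17 for Tgm1 and 1.73 for Ivl. In proliferating controls the order was Sprr2g at 34.1, Sprr1a at 9.92, Tgm1 at 6.85 and Ivl at 4.09 CPM per kb. The libraries of Sprr1a, Tgm1 and Ivl overlapped in proliferating controls, although Tgm1 lay above Ivl within each of the 3 experiments. In quiescent controls Sprr1a was at 112, 6.60 and 24.8 CPM per kb in experiments 5, 7 and 9, which overlapped both Sprr2g (88.3 in experiment 7) and Tgm1 (15.6 in experiment 9).

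Sprr2g (ENSMUSG00000046203.11) lies at chr3:92373915-92375229 on the plus strand of mm10. GENCODE M21 lists it as a polymorphic pseudogene, and RefSeq as a transcribed pseudogene. Its level in proliferating controls was 34.1, 15.3 and 17.3 CPM in experiments 5, 7 and 9. In quiescent controls it was 366, 57.5 and 427 CPM in the same order. Every quiescent control library lay above every proliferating control library, although experiment 7 reached only 57.5 CPM. The ratio of quiescent to proliferating control within an experiment was 10.8, 3.76 and 24.6, and the fitted log2 fold change was 3.67 (SE 0.90). In bulk RNA, a larger share of cells that express the gene and more RNA per cell cannot be told apart.

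In knockdown cells Sprr2g was at 36.2, 20.9 and 71.6 CPM when proliferating and at 418, 41.1 and 332 CPM when quiescent. Here the states overlapped, because quiescent knockdown of experiment 7 lay below proliferating knockdown of experiment 9. Within experiments the ratio of quiescent to proliferating knockdown was 11.5, 1.97 and 4.63, and the fitted log2 fold change was 2.62 (SE 0.86). With the experiment as a block it was 2.29 (SE 0.51).

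With the knockdown, Sprr2g was higher within each experiment in proliferating cells, but its direction varied between experiments in quiescent cells. In proliferating cells the ratio of knockdown to control was 1.06, 1.36 and 4.13 in experiments 5, 7 and 9, and in quiescent cells it was 1.14, 0.715 and 0.777. The log2 fold change in quiescent cells was -0.11 (SE 0.81) and its adjusted p in edgeR was 0.978. In proliferating cells it was 0.95 (SE 0.83) and the adjusted p in edgeR was 0.9998. The groups overlapped in both states, and standard errors of this size leave room for sizeable changes either way.

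**Figure D1:**
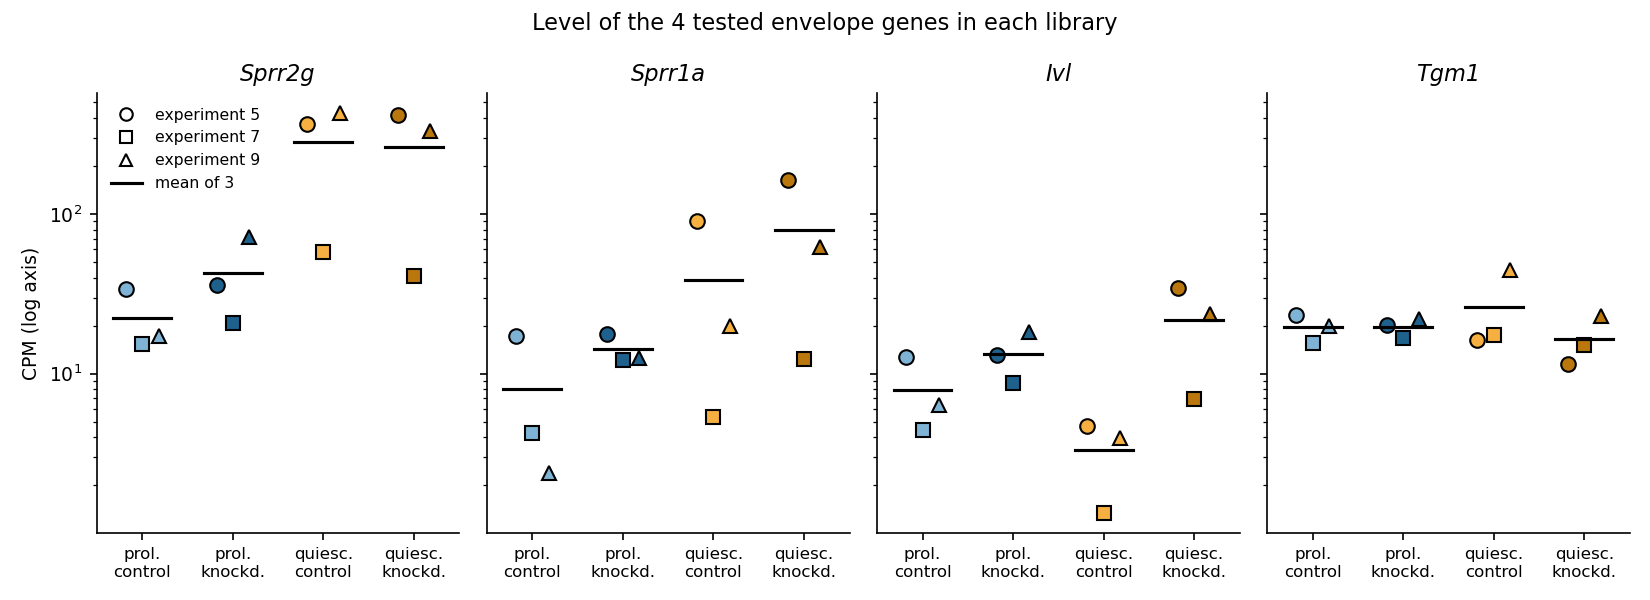
CPM (log axis) of Sprr2g, Sprr1a, Ivl and Tgm1 in each of the 12 libraries, by group on the horizontal axis, with symbols for experiments 5, 7 and 9 and bars for the mean of 3 libraries. Sprr2g is highest in quiescent cells, Ivl separates quiescent knockdown from quiescent control, and experiment 7 is the lowest symbol in every Ivl and Sprr2g group.

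Sprr2f, which is no member of the 9 but a close relative of Sprr2g, bears on reads placed in the wrong row. It had at most 17 counts in any proliferating library, and 15, 1 and 290 counts in the quiescent controls of experiments 5, 7 and 9. As a percentage of the Sprr2g count it ranged from 0.106% to 4.05%, and it was 0.282% in quiescent control of experiment 5 against 4.05% in that of experiment 9. The 2 rows were thus not in a constant ratio across libraries. Sprr2i, 85.3% identical to Sprr2g in coding sequence, had 11, 2 and 14 counts in quiescent controls of experiments 5, 7 and 9. Whether reads of Sprr2g were placed in the Sprr2f or Sprr2i row was not tested. Sprr2h, at chr3:92385685-92387324 and next to Sprr2g, never exceeded 11 counts. Its counts in quiescent controls were 4, 0 and 4, where Sprr2g had 5311, 939 and 7154.

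Sprr1a (ENSMUSG00000050359.7; chr3:92483952-92485895, minus strand), a crosslinked bridge protein that stress and injury induce in many epithelia, varied widely between experiments. Its level was 17.3, 4.27 and 2.39 CPM in proliferating controls of experiments 5, 7 and 9. In proliferating knockdown libraries it was 17.8, 12.2 and 12.6 CPM. Quiescent controls had 90.1, 5.32 and 20.0 CPM, and quiescent knockdown libraries had 164, 12.3 and 62.6 CPM. Experiment 5 was the highest in all 4 groups, and experiment 7 hardly moved with quiescence.

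Within each experiment, Sprr1a was higher with the knockdown than without it. In quiescent cells the ratios were 1.82, 2.31 and 3.13, and in proliferating cells they were 1.03, 2.85 and 5.29. The groups overlapped, and the log2 fold change in quiescent cells was 1.06 (SE 1.01), for which edgeR gave an adjusted p of 0.756. With the experiment as a block it was 1.21 (SE 0.56), for which edgeR gave 0.255 as adjusted p. In proliferating cells the values were 0.83 (SE 1.05) without and 1.35 (SE 0.63) with the block, with edgeR adjusted p-values of 0.9998 and 0.953. The ratio of quiescent to proliferating cells was 5.20, 1.25 and 8.37 in controls and 9.21, 1.01 and 4.96 in knockdown cells. The fitted log2 fold change between states was 2.26 (SE 1.07) in controls, or 1.97 (SE 0.62) with the block. In knockdown cells it was 2.49 (SE 1.06), or 1.83 (SE 0.60) with the block. Without quiescent knockdown of experiment 5, the knockdown difference in quiescent cells came to -0.04 on the log2 scale, so its direction without the block rests on that library. With the block, leaving out any 1 library gave 0.80 to 1.73.

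Sprr1b, at chr3:92436809-92438789, encodes the other Sprr1 protein and was close to silent. It had 5, 2 and 2 counts in proliferating controls and 2, 0 and 1 in quiescent controls of experiments 5, 7 and 9. In knockdown cells it had 0, 0 and 2 counts when proliferating and 5, 0 and 1 when quiescent. Sprr1a had between 42 and 3623 counts in the same libraries. Sprr3, at chr3:92456502-92458720 and typical of the oral and oesophageal lining, had 0 counts in all 3 proliferating controls and its highest count, 7, in quiescent knockdown of experiment 5. No fold change is given for these genes, which lie at or near the limit of detection at this depth.

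**Figure D2:**
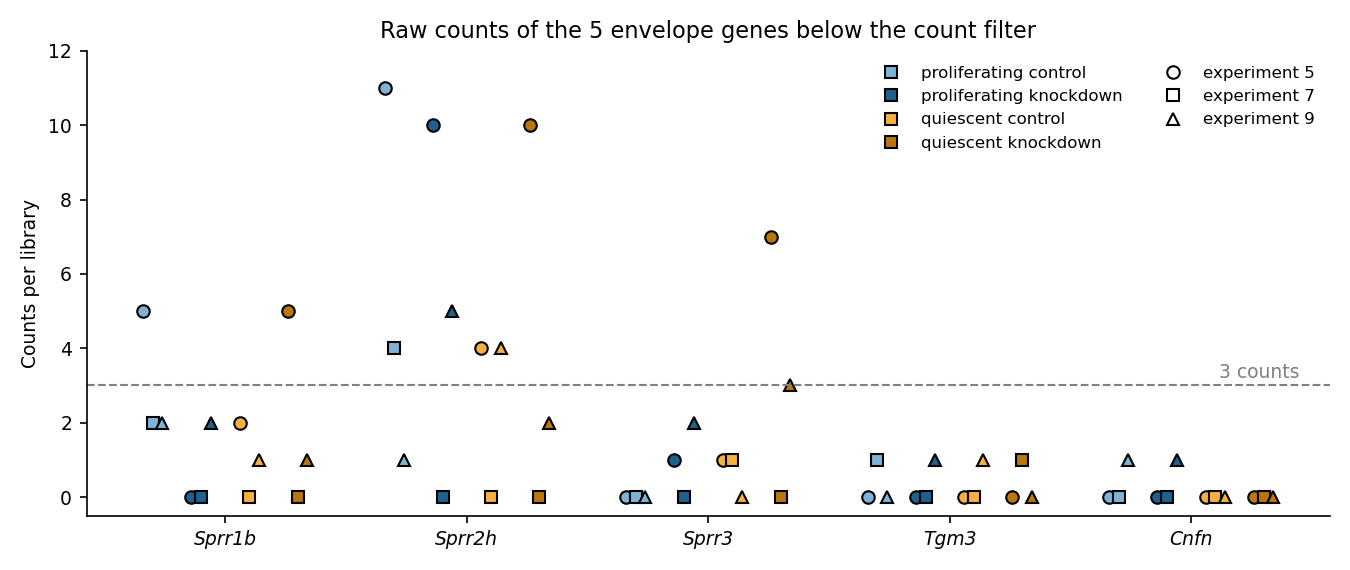
Raw counts per library of Sprr1b, Sprr2h, Sprr3, Tgm3 and Cnfn, with colours for the 4 groups, symbols for experiments 5, 7 and 9 and a dashed line at 3 counts. No value exceeds 11 counts, and the higher ones of Sprr1b, Sprr2h and Sprr3 come from experiment 5.

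Ivl (ENSMUSG00000049128.7; chr3:92570902-92573735, minus strand), the glutamine-rich scaffold on which the envelope is begun, differed between knockdown and control in quiescent cells more than any other of the 4 tested genes. Quiescent controls had 4.69, 1.35 and 3.94 CPM in experiments 5, 7 and 9, from 68, 22 and 66 counts. Quiescent knockdown libraries had 34.5, 6.98 and 23.7 CPM, from 760, 117 and 405 counts. All 3 knockdown libraries lay above all 3 controls. The ratios within experiments were 7.34, 5.18 and 6.03.

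The log2 fold change of Ivl with the knockdown in quiescent cells was 2.71 (SE 0.63), for which edgeR gave an adjusted p of 0.0990, so it did not pass the threshold of 0.05. With the experiment as a block it was 2.63 (SE 0.32), for which edgeR gave an adjusted p of 0.00380, and it passed. Without the block, 0 of the 4 tested genes were called, where 0.435% of all 12406 tested genes were. With the block 1 of the 4 was called, Ivl, where 3.55% of all tested genes were. With the block, the call was kept on leaving out any 1 library (edgeR adjusted p 0.00216 to 0.0319), but not without the whole of experiment 9 (edgeR adjusted p 0.103). Without the block, Ivl was called on leaving out quiescent knockdown of experiment 7 (edgeR adjusted p 0.0443), and leaving out other single libraries gave up to 0.302. Without the block, 2 of the 4 genes had a positive log2 fold change, Ivl and Sprr1a, while Sprr2g and Tgm1 had a negative one. The median log2 fold change of the 4 genes was 0.48, against 0.016 over all tested genes, and is not read as a shift of the set.

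In proliferating cells Ivl was at 12.8, 4.44 and 6.36 CPM in controls and at 13.1, 8.76 and 18.3 CPM in knockdown libraries. These groups overlapped, the ratios within experiments were 1.02, 1.97 and 2.88, and the log2 fold change was 0.76 (SE 0.59), for which edgeR gave an adjusted p of 0.9998. With the block it was 0.86 (SE 0.30), for which edgeR gave 0.948 as adjusted p. In proliferating cells 0 of the 4 genes were called by either fit, where 0.0242% of all tested genes were called by each. The knockdown difference of Ivl in quiescent cells exceeded that in proliferating cells by 1.95 on the log2 scale (SE 0.85), but the edgeR adjusted p of this interaction was 0.9997, and 0.684 with the block. The interaction was called for 0% of all tested genes by either fit, with 219 genes at an unadjusted edgeR p under 0.05 without and 590 with the block, and for 6 genes by DESeq2. A difference between the states in the response of Ivl was therefore not shown.

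From proliferating to quiescent controls Ivl went the opposite way to Sprr2g. The ratio within experiments was 0.367, 0.303 and 0.618, and the log2 fold change was -1.24 (SE 0.62), or -1.28 (SE 0.33) with the block. In knockdown cells the ratios of quiescent to proliferating cells were 2.64, 0.797 and 1.30, with a log2 fold change of 0.70 (SE 0.58). Sprr2g and Ivl, both envelope genes of the same region, thus differed in their order of groups. Sprr2g was highest in the 2 quiescent groups, and Ivl was lowest in quiescent controls and highest in quiescent knockdown cells by their means.

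A marker list of another cell type was also highest in quiescent knockdown libraries. The 8 leukocyte markers summed to 15.6 to 33.3 CPM in proliferating control, 26.3 to 55.6 in proliferating knockdown, 39.7 to 61.9 in quiescent control and 110 to 170 in quiescent knockdown libraries. That sum was carried by Csf1r, at 104 to 163 CPM in quiescent knockdown libraries. Cd3e was at 0 in all 12 libraries, and 6 of the 8 markers never reached 1 CPM. The sum of the urothelial markers moved as well, from 12386 to 19421 CPM in quiescent control to 21490 to 23416 CPM in quiescent knockdown libraries. Most of that sum came from keratins, with Krt8 at means of 5903 and 8909 CPM and Krt18 at 4279 and 6127 CPM. Other markers on the list went the opposite way, such as Cdh1 (1921 and 1303 CPM) and Pparg (6.12 and 2.16 CPM). The part of these shifts in the Ivl result was not tested.

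Tgm1 (chr14:55700009-55713926, minus strand), the membrane-bound transglutaminase that crosslinks the envelope precursors, was the steadiest of the 4 genes. Proliferating controls had 23.3, 15.5 and 19.8 CPM and proliferating knockdown libraries had 20.3, 16.8 and 22.1 CPM in experiments 5, 7 and 9. Quiescent controls had 16.4, 17.6 and 44.5 CPM, where experiment 9 stood above the other two. Quiescent knockdown libraries had 11.5, 15.2 and 23.0 CPM. The groups overlapped in all 4 of these comparisons.

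In quiescent cells Tgm1 was lower with the knockdown in each experiment, at ratios of 0.704, 0.866 and 0.516, in the opposite direction to Ivl and Sprr1a. The log2 fold change was -0.66 (SE 0.37), and the block made it -0.60 (SE 0.28), for which edgeR gave adjusted p-values of 0.537 and 0.255. In proliferating cells it was 0.01 (SE 0.37), for which edgeR gave 0.9998 as adjusted p. Between the states the log2 fold change was 0.42 (SE 0.37) in controls and -0.25 (SE 0.37) in knockdown cells. The value in controls rests on experiment 9, since it was -0.20 without the quiescent control of that experiment.

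Tgm3 (chr2:130012349-130050399), the transglutaminase of hair and upper epidermis, and Cnfn (chr7:25367620-25369724), a cysteine-rich envelope component, were not detectable as more than stray counts. Tgm3 had 1 count in each of 4 libraries, and Cnfn had 1 count in each of 2. No difference between groups could be detected at this depth. Tgm2, the widely expressed cytoplasmic transglutaminase, was the 1 gene that could be tested among the 7 other members of the family listed, and no contrast called it. With the knockdown in quiescent cells its log2 fold change was -0.28 (SE 0.53), and edgeR gave an adjusted p of 0.891.

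For the contrast of quiescent with proliferating controls, 1 of the 4 tested genes (Sprr2g) was called without the block, where 20.0% of all tested genes were. With the block 3 were called (Sprr2g and Sprr1a higher, Ivl lower), where 35.3% of all tested genes were. In knockdown cells the contrast called 0 of the 4 without and 2 (Sprr2g and Sprr1a, both higher) with the block, where 18.4% and 33.0% of all tested genes were called. Nothing is read from these counts, because results of this contrast took part in the choice of genes.

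**Figure D3:**
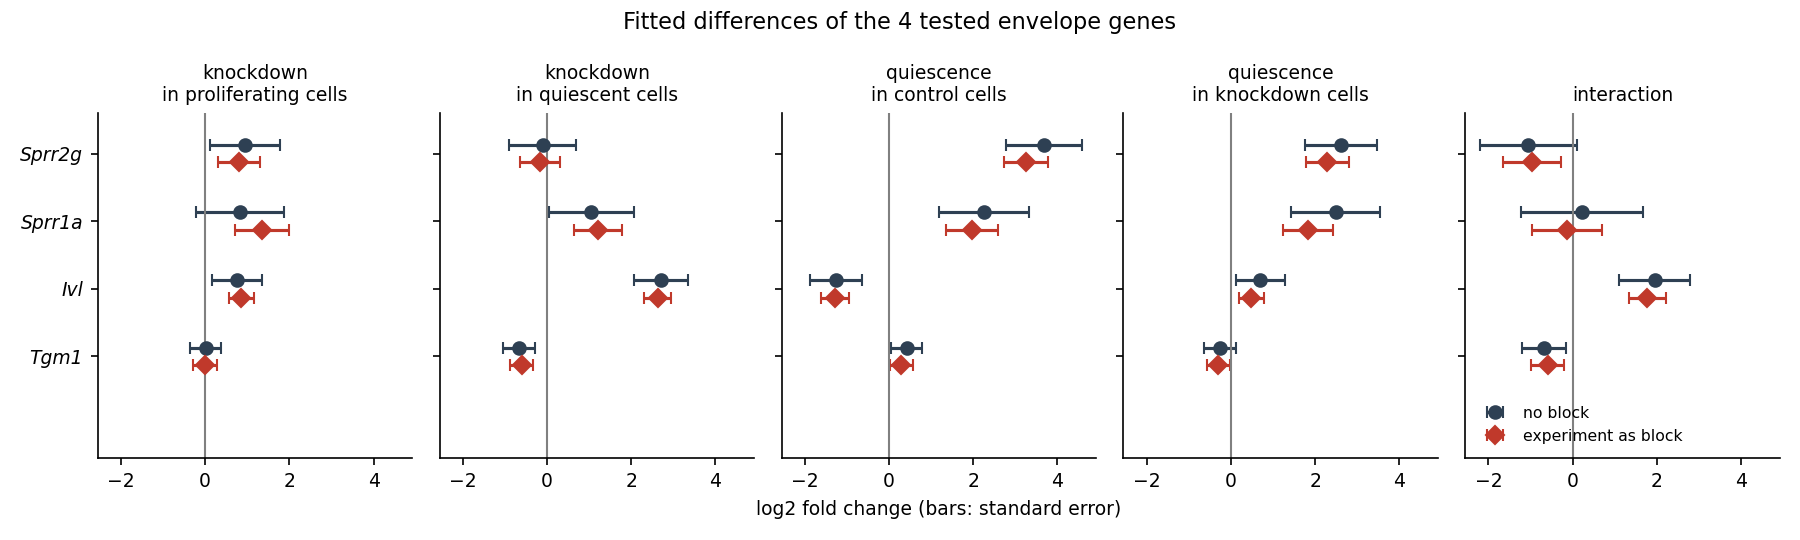
Fitted log2 fold changes (horizontal axis) of Sprr2g, Sprr1a, Ivl and Tgm1 in the 5 contrasts, with standard errors as bars, without (circles) and with (diamonds) the experiment as a block. The block narrows the bars, and the fitted values of Ivl in quiescent cells, 2.71 and 2.63, lie farthest from 0 among the knockdown contrasts.

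The promoters of Sprr1a, Sprr1b and Ivl are shown because 2 of these genes, Sprr1a and Ivl, were higher with the knockdown in each quiescent pair, while Sprr1b stayed near 0 counts. The 250 bases before each transcription start are given 5′ to 3′ on the gene's strand, from RefSeq on GRCm38.p6. Capitals mark matches to TGANTCA, a form of the site bound by AP-1 (Fos and Jun proteins), and to TATAAA, the core of the TATA box.
Sprr1a, chr3:92485882-92486131, minus strand: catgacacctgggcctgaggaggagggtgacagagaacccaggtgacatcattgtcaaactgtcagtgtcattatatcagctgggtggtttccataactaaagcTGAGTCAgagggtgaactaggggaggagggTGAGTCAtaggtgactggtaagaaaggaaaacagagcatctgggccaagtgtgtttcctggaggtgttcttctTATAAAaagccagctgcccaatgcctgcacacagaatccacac
Sprr1b, chr3:92438780-92439029, minus strand: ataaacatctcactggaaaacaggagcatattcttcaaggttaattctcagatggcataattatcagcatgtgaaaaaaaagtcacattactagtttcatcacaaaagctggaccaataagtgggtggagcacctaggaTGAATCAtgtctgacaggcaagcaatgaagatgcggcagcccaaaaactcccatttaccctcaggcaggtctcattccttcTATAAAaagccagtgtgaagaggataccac
Ivl, chr3:92573736-92573985, minus strand: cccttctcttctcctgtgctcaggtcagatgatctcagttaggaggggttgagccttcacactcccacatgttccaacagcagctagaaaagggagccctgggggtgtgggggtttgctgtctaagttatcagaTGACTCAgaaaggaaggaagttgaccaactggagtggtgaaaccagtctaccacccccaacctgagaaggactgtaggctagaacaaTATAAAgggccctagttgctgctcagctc
Sprr1a has 2 matches to TGANTCA, which begin 146 and 116 bases before the start, Sprr1b has 1 at 111 bases and Ivl has 1 at 116 bases. Each of the 3 promoters also holds TATAAA, beginning 43, 30 and 29 bases before the start. Promoter sequence was found in the RefSeq table for 8 of the 9 genes. Of these, Sprr2h was the only other with TGANTCA, and Sprr3, Tgm1, Tgm3 and Cnfn held none in the window from 250 bases before to 50 after the start. TATAAA was also found for Sprr2h, Sprr3 and Tgm3, beginning 29, 33 and 28 bases before the start. Both strands were searched, and the motifs do not overlap each other. In all 32851 promoters of that length, 7.81% held TGANTCA and 13.6% held TATAAA. Such matches are descriptions of the letters in these windows. Sprr1a and Sprr1b both carry the 2 motifs, and their levels differed by a wide margin in these cells. Whether the matches bear on the level of any of these genes was not tested.

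The transcription factors of squamous differentiation included AP-1 subunits, and 19 of the 22 listed were tested. In quiescent controls 7 rose and 2 fell, against 20.0% of all genes called in that contrast. Those with the largest differences were Fosl1, an AP-1 subunit (log2 fold change -3.53, SE 0.54, edgeR adjusted p 0.00126), Gata3 (1.47, SE 0.40, edgeR adjusted p 0.0263), Zfp750, a regulator of late epidermal differentiation (1.32, SE 0.33, edgeR adjusted p 0.0180), and the epithelial factor Elf3 (1.27, SE 0.40, edgeR adjusted p 0.0443). In quiescent knockdown against proliferating knockdown, 2 rose and 2 fell, or 5 and 3 with the block, against 18.4% and 33.0% of all genes called. Fosl1 was again among them, at -3.35 (SE 0.53, edgeR adjusted p 0.00205). With the knockdown in quiescent cells, edgeR called 0 of the 19 (0.435% of all genes), and with the block, where 3.55% of all genes were called, 1 rose and 1 fell: Maf, at 1.15 (edgeR adjusted p 0.0238), and Nfe2l2, at -0.58 (edgeR adjusted p 0.0447). The list's median log2 fold change in that contrast was -0.33, against 0.016 over all tested genes.

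Of 27 other envelope precursors and scaffolds, 13 were tested. In quiescent controls, where 20.0% of all genes were called, 3 rose, among them Evpl, the plakin envoplakin (log2 fold change 0.84, SE 0.19, edgeR adjusted p 0.00953), and the annexin Anxa1 (0.84, SE 0.19, edgeR adjusted p 0.0122), and 1 fell, Serpinb2. Serpinb2 is named after its values were seen, and its level was at most 1.34 CPM. The knockdown called 0 of the 13 in either state with or without the block. Of all tested genes it called 0.0242% in proliferating cells by either fit, and in quiescent cells 0.435% without and 3.55% with the block. For Lor, which encodes loricrin, the major bulk protein of the epidermal envelope, the log2 fold change in quiescent cells was 1.34 (SE 0.69), with means of 0.810 CPM in control and 2.05 CPM in knockdown libraries, and edgeR gave 0.485 as adjusted p. The median log2 fold change of the 13 genes in that contrast was 0.09.

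Envelope proteases and their inhibitors were tested for 8 of 12 genes. In quiescent controls 1 rose and 2 fell, or 3 and 3 with the block, against 20.0% and 35.3% of all genes called, with the serine protease Klk8 at -1.32 (SE 0.28, edgeR adjusted p 0.00725) and the membrane protease Prss8 at 0.67 (SE 0.21, edgeR adjusted p 0.0477). The knockdown in quiescent cells called 0 of the 8 without the block, against 0.435% of all genes. With the block, which called 3.55% of all genes, 2 rose: Klk8, at 1.25 (edgeR adjusted p 0.0267), and Klk10, at 2.14 (edgeR adjusted p 0.0450), which is named after its values were seen and had at most 1.11 CPM in those groups. Like Ivl, both kallikreins were lower in quiescent than in proliferating controls and higher with the knockdown in quiescent cells, by fitted values. Among 6 tested genes of the corneocyte lipid envelope, the ceramide glucosyltransferase Ugcg fell in quiescent controls (-0.73, SE 0.19, edgeR adjusted p 0.0212), and Abhd5 rose there with the block (0.53, edgeR adjusted p 0.0338). The knockdown called 0 of these 6 in either state by either fit, against at most 3.55% of all genes.

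Keratins and junction genes of stratified squamous epithelia were tested for 8 of 21. Krt4, the keratin of moist stratified lining, fell in quiescent controls (log2 fold change -2.86, SE 0.65, edgeR adjusted p 0.0113) and in quiescent knockdown cells (-3.87, SE 0.68, edgeR adjusted p 0.00312). The lipid carrier Fabp5 fell in quiescent knockdown cells (-1.34, SE 0.34, edgeR adjusted p 0.0194), and its value in quiescent controls was -0.43 (SE 0.33, edgeR adjusted p 0.388). The knockdown in quiescent cells called 0 of the 8 by either fit, where 0.435% of all genes were called without and 3.55% with the block. Krt16, a keratin of activated keratinocytes, was at 2.11 (SE 0.86, edgeR adjusted p 0.360), or 2.56 (edgeR adjusted p 0.0717) with the block. Fabp5 went the opposite way, at -1.12 (SE 0.34, edgeR adjusted p 0.197), or -1.05 (edgeR adjusted p 0.0557) with the block. The median log2 fold change of the 8 genes without the block was -0.0085, with 4 of them positive. None of the lists had a call with the knockdown in proliferating cells or for the interaction, in edgeR with or without the block. Of all tested genes, 0.0242% and 0% were called in these contrasts by each fit.

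Along chromosome 3, 35 counted genes lay within 300 kb of the 6 envelope genes there, in chr3:92073915-92873735. Of these, 11 had no count in any library, 27 never reached 10 counts, and 7 were tested: Lor, Sprr2f, Sprr2g, Sprr2i, Sprr1a, Ivl and Lce6a. High counts were thus found at a few separate genes of the complex. Lce6a, a late cornified envelope gene that lies beyond Smcp from Ivl and is named after its values were seen, had 0.780 CPM ± 0.390 (SD, n = 3) in proliferating control and 9.94 ± 6.56 in quiescent control libraries. Its means in knockdown cells were 1.28 ± 1.04 when proliferating and 14.4 ± 8.56 when quiescent. Lce6a was thus higher in both quiescent groups, like Sprr2g, whereas Ivl was lowest in quiescent controls.

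**Figure D4:**
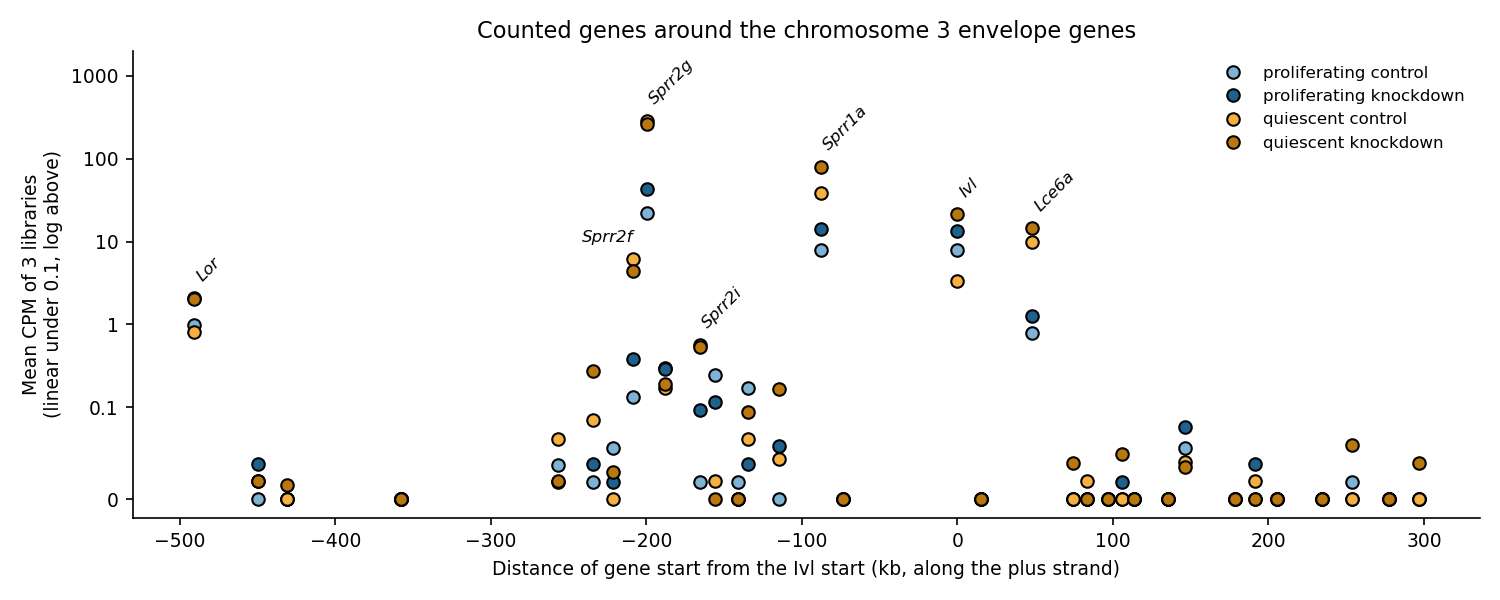
Mean CPM of 3 libraries (vertical axis, linear under 0.1 and logarithmic above) for the counted genes around the chromosome 3 envelope genes, by distance from the Ivl start in kb, with a colour for each of the 4 groups. Sprr2g, Sprr1a, Ivl, Lce6a and, in quiescent cells, Sprr2f (6.13 CPM in control) stand out, while most neighbours lie below 1 CPM.

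The genes whose levels followed each tested gene most closely were found by the root-mean-square difference of centred log2 CPM over the 12 libraries, among 11553 genes. For Ivl they were Tmprss4, a membrane serine protease, at 0.54, Fbxo2 at 0.63 and Pglyrp1 at 0.64, where Ivl itself spanned 4.56 log2 units. For Sprr2g they were Rasgef1a at 0.71, 0610040J01Rik at 0.75 and Akr1c19 at 0.75, and for Sprr1a they were Prnd at 0.79, Akr1c19 at 0.80 and Neurl3 at 0.81. For Tgm1, which spanned only 1.94 log2 units, they were Ncoa7 at 0.22, Kif21a at 0.22 and Net1 at 0.23. Akr1c19 was common to Sprr2g and Sprr1a, and the likeness includes differences between experiments as well as between groups.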

How the data were processed

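Raw counts per gene and library, whole numbers with no normalization, were deposited by the authors for 12 libraries. The submitters' processing notes name Bowtie, TopHat, HTSeq, DESeq2 and build mm10. Their versions, the gene models and whether counting used strand are not given in the sources used here. Per the labels' protocols, libraries came from polyadenylated RNA with a stranded kit. The envelope genes and all lists were chosen with earlier results of these data known.

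Counts were fitted with edgeR 4.0.16 (limma 3.58.1, R 4.3.3): filterByExpr with a minimum count of 10 left 12406 genes, TMM factors were applied, and a model of 4 group means was tested by glmQLFTest, with Benjamini-Hochberg adjustment over all tested genes and a threshold of 0.05. A standard error is the log2 fold change divided by the square root of F. CPM uses TMM-scaled totals, and log2 CPM a prior count of 2. The scripts were tested on simulated data.

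The number of an experiment coincides with the batch in the labels, so it pairs the libraries. Deviations from group means correlated at a mean r of 0.526 between same-numbered libraries (18 pairs, 0.225 to 0.789). Between others the mean was -0.259 (36 pairs), a negative sign that follows from centring each group of 3 libraries and adds no support. A fit with the experiment as a block is therefore given where it changes a call. The labels do not say whether replicates were separate thaws or cultures, so p-values measure the spread between these experiments. No libraries held identical values, and chi-square per degree of freedom between replicates was 36.58 to 99.69. Floors cover counting error only.

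From each list, at most the 4 tested genes with the largest absolute log2 fold change and a mean log2 CPM of at least 0 are named, apart from those said to be named after their values were seen. The chromosome 3 window was also set after the data were seen. Alternatives were the block, median-of-ratios factors, DESeq2 1.42.0, other count filters, fits to 1 contrast's libraries, summed Sprr rows and leaving out libraries or experiments. Some items of the lists are not reported here.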

Additional observations from a re-analysis of the deposited data

How the results depend on the processing

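Counts of called envelope genes depended on the replicate block and on single libraries. For the knockdown in quiescent cells the count was 0 without the block, and 1 with it, by DESeq2, and with the block when low counts were not filtered, when Sprr rows were summed, or without experiment 5 or 7. It was 0 without experiment 9. Leaving out 1 library gave 0 to 1, with 1 without quiescent knockdown 7 when no block was used. For quiescence in controls the count was 1, and 3 with the block, also with no filter or summed rows, and 2 without any 1 experiment. Leaving out 1 library gave 0 to 3, with 0 without proliferating control 7 or 9. For quiescence in knockdown cells it was 0, and 2 with the block, 1 by DESeq2 or with no filter, and 2 without experiment 7 or 1 without experiment 9 with the block. Leaving out 1 library gave 0 to 2, with 1 without quiescent control 7 or quiescent knockdown 7 when no block was used. For the knockdown in proliferating cells and the interaction it was 0 throughout. Of all tested genes, edgeR called 0.435% without and 3.55% with the block for the knockdown in quiescent cells. For quiescence it called 20.0% and 35.3% in controls, and 18.4% and 33.0% in knockdown cells. Shares for the other settings are not printed here, so nothing is read from these counts about the envelope genes.

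Some fitted log2 fold changes changed sign. Tgm1 with the knockdown in proliferating cells was -0.0019 with the block, -0.0081 with no filter and -0.0018 with summed rows besides, -0.060 without experiment 7 and -0.054 without experiment 9, and -0.24 to 0.33 on leaving out 1 library. In quiescent cells, leaving out 1 library gave -0.61 to 0.40 for Sprr2g and -0.037 to 2.64 for Sprr1a. Tgm1 with quiescence in controls ran from -0.20 to 0.69, and was -0.18 without experiment 9. The interaction of Sprr1a was -0.14 with the block, -0.15 with no filter besides, -0.34 without experiment 5 and -0.11 without experiment 9, and ran from -1.04 to 1.81 on leaving out 1 library. Apart from the change of libraries in the last kind, the cause was not tested.

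Over all genes, the block moved the calls from 54 to 440 for the knockdown in quiescent cells (DESeq2 390), from 2481 to 4374 for quiescence in controls and from 2279 to 4096 in knockdown cells. DESeq2 gave 12 in place of 3 for the knockdown in proliferating cells and 6 in place of 0 for the interaction. The fits without a whole experiment, and those joining the block with another change, were chosen after seeing the data. Depth limits Sprr1b, Sprr2h, Sprr3, Tgm3 and Cnfn, for which no change could be detected.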
